A study of Mus musculus with 147 samples.

Results

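Cells that the sorter had placed in the 2N window of DNA content were compared with cells placed in the 1N window of the same testes at PND30 (postnatal day 30). The cells were chosen by the fields of the authors' cell names (time-point PND30, genotype WT, gate 2N or 1N) and by the quality filter of the study, more than 2000 detected genes and 10000 to 1000000 transcripts counted by unique molecular identifiers (UMIs). This left 277 of 288 cells in the 2N gate and 286 of 288 in the 1N gate, or 563 of the 12692 cells that passed the filter in the whole series of 13032. A further 286 of 288 cells of the 4N gate served as a reference and entered the same estimate of the spread.

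The animals of both gates were male WT offspring of C57BL/6 females and BVSC males, which carry the Prdm1-mVenus and Dppa3-ECFP reporter transgenes. No treatment was given, and the testes were digested, stained with Hoechst and sorted by ploidy. There were 2 replicates (R1 and R2), each the testis of 1 mouse that supplied all 3 gates. Every library held the cells of 1 gate of 1 replicate, 2 libraries per gate in R1 and 1 per gate in R2, so that gate and library cannot be told apart. The same 96 cell barcodes were used in all 9 sorted libraries, and no doublet caller was run, so wells that held a pair of haploid cells were not identified.

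In the testis, spermatogonia divide by mitosis and hold a diploid amount of DNA before they replicate. Primary spermatocytes carry replicated chromosomes through the long meiotic prophase, the first meiotic division gives short-lived secondary spermatocytes, and the second gives haploid round spermatids that elongate and replace their histones with transition proteins and then protamines. A 2N window can therefore admit spermatogonia, secondary spermatocytes and somatic cells. Transcription of the sex chromosomes is shut down in pachytene spermatocytes and resumes in part after meiosis, and many spermatid mRNAs are stored before they are translated.

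Depth differed between the gates. The median cell held 338710 UMIs in 2N R1 and 334935.5 in 2N R2, against 293843.5 in 1N R1 and 190973 in 1N R2, so the ratio of the medians was 1.153 in R1 and 1.754 in R2. The summed libraries held 66404531 and 29264877 UMIs for 2N and 53114344 and 16808218 for 1N. With 2 sums against 2, an exact two-sided permutation test cannot go below p = 0.333, so that depths, shares of cells and shares of UMIs are given as descriptions.

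To ask which cells the 2N gate held, the sorted PND30 cells were clustered with the 254 genes of the lists and marker panels left out, and the clusters were named from marker panels. The 2N gate was a mixture with both spermatid-like and spermatocyte-like cells. Of the 277 cells, 92 (33.21%, exact Clopper-Pearson 95% interval 27.69 to 39.1) lay in 2 round spermatid-like clusters, 20 (7.22%, 4.47 to 10.93) in an elongating spermatid-like cluster and 66 (23.83%, 18.93 to 29.29) in a spermatocyte-like cluster. The remaining 99 cells (35.74%, 30.1 to 41.69) lay in a cluster that could not be named, because its best spermatocyte and spermatid panels differed by less than 1. On the log2(CPM + 10) scale (CPM, counts per 1000000 UMIs), its best panel, that of dividing and secondary spermatocytes, stood 0.89 above the other clusters. The best spermatid panel stood 0.21 above them. These intervals cover counting error only. The leading genes were Spam1, Plin2 and Gm20268 in the first and Saxo1, 4930405D11Rik and Gm14151 in the second round spermatid-like cluster, Car2, Cstl1 and Oxct2a in the elongating spermatid-like, Hmgb2, Pcbp1 and BC049730 in the spermatocyte-like and Dek, Gm3453 and Gm21698 in the unnamed cluster. No marker of secondary spermatocytes alone was on the panels, so that their number in the 2N gate was not estimated.

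The mix differed between the 2 mice more than these intervals span. Spermatocyte-like cells were 24 of 189 in 2N R1 (12.7%, interval 8.31 to 18.3) and 42 of 88 in 2N R2 (47.73%, 36.96 to 58.65), whereas unnamed cells were 87 (46.03%) and 12 (13.64%). Both 2N libraries of R1 showed the R1 pattern, with 10 of 94 and 14 of 95 spermatocyte-like cells. Round spermatid-like cells were 34.92% of 2N R1 and 29.55% of 2N R2, with overlapping intervals.

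In the 1N gate, round spermatid-like cells were 66 of 192 in R1 and 52 of 94 in R2, and elongating spermatid-like cells were 27 and 23. Spermatocyte-like cells were 2 and 3 there, against 153 of 191 and 88 of 95 in the 4N gate. These counts depended on how finely the cells were clustered: at resolution 1.0 fewer cells were unnamed and more took the spermatocyte-like name, which gave 41 of 192 (21.35%) and 18 of 94 (19.15%) in 1N and 63 of 189 (33.33%) and 48 of 88 (54.55%) in 2N. The share of spermatocyte-like cells was higher in 2N than in 1N in both mice at both resolutions, and the share of elongating spermatid-like cells was lower in 2N in both (6.35% against 14.06% in R1, 9.09% against 24.47% in R2). Unnamed cells were as common in 1N R1 (97 of 192) as in 2N R1 within the intervals.

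**Figure D1:**
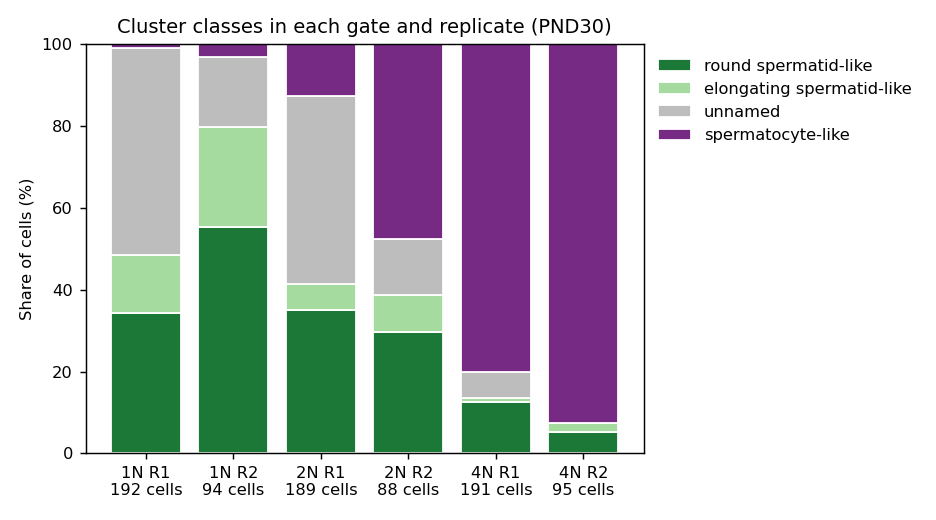
Share of cells (%, vertical axis) in each cluster class for each gate and replicate, with the number of cells under each bar. The purple spermatocyte-like part is 12.7% of 2N R1 and 47.73% of 2N R2, lies under 4% in both 1N bars and reaches 80.1% and 92.63% in the 4N bars.

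Spermatogonia and somatic cells made up few of the cells. A cell was listed when the summed CPM of a marker panel for spermatogonia or for 1 of 5 somatic types reached 1000, a limit set after the values had been seen. This listed 12 of 277 cells of the 2N gate, 2 of 286 of the 1N gate and 0 of 286 of the 4N gate. By panel, 4 of the 2N cells passed for spermatogonia (1 in R1 and 3 in R2), 6 for Sertoli cells, the nurse cells of the tubule (3 and 3), 2 for Leydig cells and 2 for peritubular and interstitial cells (all 4 in R1), and 2 cells passed for a pair of panels. None passed for macrophages or endothelial cells, whose highest sums in the 2N gate were 207.3 and 96.5 CPM.

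The 4 cells with high spermatogonial panels were not alike. One, in R1, held 16237 UMIs and a panel sum of 2278.7 CPM with Sycp1 at 184.8 CPM. In R2, 2 of the cells also held Sycp1 at 1426.1 and 950.1 CPM, above the median of 229.3 CPM of the 2N cells of R2, and the last held a Sertoli panel sum of 8245.5 CPM. Zbtb16, a transcription factor of undifferentiated spermatogonia, had a UMI in 7 of 189 and 1 of 88 cells of the 2N gate and in 9 of 192 and 0 of 94 of the 1N gate (exact 95% upper limit of the last 3.85%). In the 4N gate these were 13 of 191 and 2 of 95, so the 2N share did not exceed that of 4N in either mouse. Depth was not equalised for these shares (medians of 437045 and 301187 UMIs in 4N R1 and R2, 338710 and 334935.5 in 2N). In 1N R1, Zbtb16 was at 0.69 CPM in 1 library and 0.04 CPM in the other. The shares do not show whether the 2N gate held spermatogonia with Zbtb16. Of the 12 listed cells, 11 lay in the unnamed cluster.

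The 4 genes used to read the mix gave little contrast when all cells of a gate were summed, with the exception of Acrv1. In the sums, CPM were scaled by TMM (trimmed mean of M values), and a difference is a log2 fold change, 2N minus 1N, with its standard error (SE) from edgeR's quasi-likelihood test with replicate as a block and Benjamini-Hochberg adjustment over 20269 genes. Ddx4, the germ cell RNA helicase on chromosome 13 of mm10 from 112598333 to 112652475, stood at 444.82 and 398.97 CPM in 1N R1 and R2 and at 387.83 and 395.13 CPM in 2N R1 and R2. The 2N values lay just below both 1N values, with a difference of -0.11 (SE 0.26, adjusted p = 0.877).

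Sycp1, a transverse filament protein of the synaptonemal complex on chromosome 3 from 102818499 to 102936100, measured 265.73 and 313.65 CPM in 1N and 233.60 and 266.35 CPM in 2N. The groups overlapped by a small margin and the difference was -0.21 (SE 0.28, adjusted p = 0.755). Sycp1 transcript was present in haploid-sorted cells, and its medians in single round spermatid-like cells were 356 and 358.3 CPM in 1N and 326.2 and 412.2 CPM in 2N. Ccna1, the meiotic A-type cyclin on chromosome 3 from 55045469 to 55055501, was at 348.84 and 221.83 CPM in 1N and at 296.40 and 219.10 CPM in 2N, again with overlap (difference -0.14, SE 0.28, adjusted p = 0.853). For these 3 genes the test called no difference, which does not show that the gates had the same level.

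Acrv1, an acrosomal vesicle protein made in spermatids, on chromosome 9 from 36693220 to 36698843, was at 386.20 and 612.02 CPM in 1N and at 306.20 and 204.51 CPM in 2N. Both 2N sums lay below both 1N sums, and Acrv1 fell by 1.01 on the log2 scale (SE 0.28, adjusted p = 0.0191). The gap was larger in R2, the mouse with more spermatocyte-like 2N cells, at -1.58 against -0.33 in R1. In sums of this kind, fewer cells of a type and less RNA per cell cannot be told apart.

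Cell by cell, the levels of the 4 genes in the classes are given as a description, since the panels that named the clusters contain all 4. In round spermatid-like 2N cells the median Acrv1 level was 503.6 CPM in R1 and 512.2 CPM in R2, and in spermatocyte-like 2N cells it was 59.1 and 37.7 CPM. Unnamed 2N cells lay between, at 195.1 and 92.1 CPM, and had the highest Ccna1, 437.2 and 421 CPM against 145.4 and 132.2 CPM in round spermatid-like cells. Ddx4 was high in all of these, from 355.5 to 476.1 CPM, and low in elongating spermatid-like cells, at 111.1 and 130.8 CPM. Sycp1 was highest in round spermatid-like 2N cells, at 326.2 and 412.2 CPM, and lowest in elongating spermatid-like ones, at 23.7 and 71.6 CPM. Between these, the order of the classes differed between the mice, with 181.2 and 213.8 CPM in spermatocyte-like and 199.9 and 178.4 CPM in unnamed 2N cells.

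**Figure D2:**
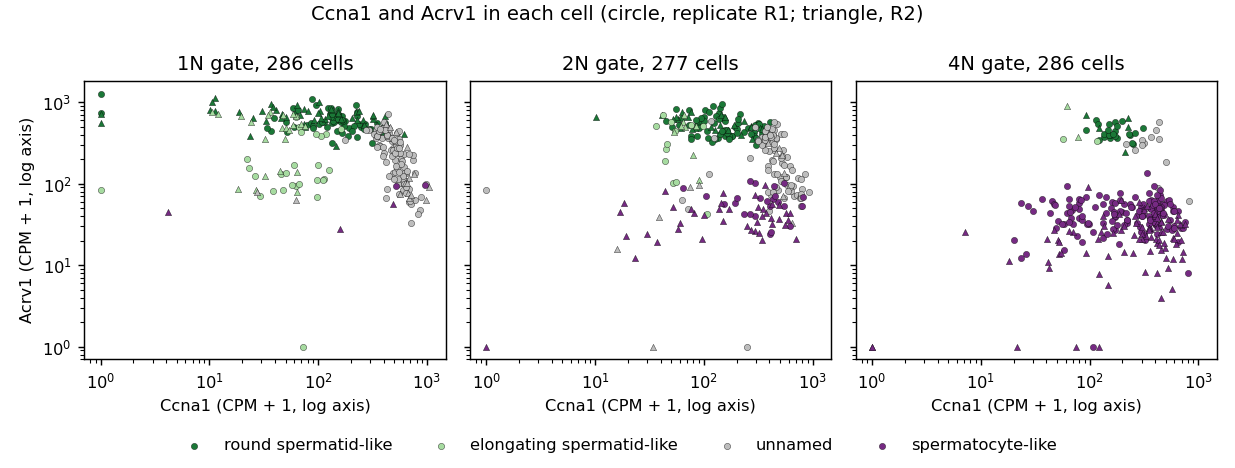
Ccna1 (horizontal) and Acrv1 (vertical) in each cell of the 1N, 2N and 4N gates, in CPM + 1 on log axes, coloured by class, with circles for R1 and triangles for R2. In the 1N and 2N gates the grey unnamed cells bridge high Ccna1 with low Acrv1 and the round spermatid-like cells, whose median Acrv1 in 2N was 503.6 CPM in R1 and 512.2 CPM in R2.

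A finer clustering (resolution 0.6) placed 71 2N cells in spermatocyte-like clusters, against 66 before. They formed a group with more Ccna1 and Cdk1, a kinase of division, with 17 and 24 cells of 2N R1 and R2, and a group with more Sycp1 and Tex12, a synaptonemal complex protein, with 8 and 22 cells. In the second group, 2N R2 cells had a median of 519.7 CPM for Sycp1, 46.7 CPM for Ccna1 and 23.5 CPM for Pou5f2, while the 8 cells of 2N R1 had 284.4, 196.0 and 301.3 CPM. The 4N cells of that group had Pou5f2 at 140.8 and 133.2 CPM, between the 2 mice's 2N values. A separate unnamed cluster held 33 cells of 2N R1, 3 of 1N R1, 8 of 4N R1 and none of R2, with median Acrv1 at 364.6 CPM and Ccna1 at 401.1 CPM in its 2N cells. All its cells came from 1 mouse, so that mouse and cluster cannot be told apart.

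Detection alone told little at this depth. With all UMIs, Ddx4 was detected in 277 of 277 2N cells, Sycp1 in 98.19%, Ccna1 in 99.28% and Acrv1 in 98.92%, and Acrv1 was detected as well in 285 of 286 1N cells and 280 of 286 4N cells. After each cell was thinned to 10000 UMIs, which left out no cell, Acrv1 was seen in 152 of 189 and 55 of 88 2N cells and in 165 of 192 and 85 of 94 1N cells. Thinned shares were therefore lower in 2N in both mice, in the same order as the CPM. Stra8, the retinoic acid response gene of cells entering meiosis, had a UMI in 2 of 189 and 25 of 88 2N cells and in 31 of 192 and 7 of 94 1N cells, an order that differed between the mice, and in 8 of 191 and 7 of 95 4N cells. In 1N R1, Stra8 was at 3.01 CPM in 1 library and 0.0 CPM in the other, so that the order in R1 rested on 1 library. That library also held the high haemoglobin values given below. Depth was not equalised for the Stra8 shares.

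The comparison of all 2N with all 1N cells asks which transcripts separate the gates. Of 20269 genes, 364 were higher and 397 lower in 2N, 761 in all or 3.75% of those tested (1.80% higher and 1.96% lower), and the median difference over all genes was 0.00. No member of the 7 lists of spermatid, X-linked or Y-linked genes was called higher. Within-mouse medians are given beside the fitted ones for lists in which the 2 mice differed. These counts rested on the pairing by mouse: without the replicate block edgeR called 0 genes, with 2578 at an unadjusted p under 0.05 against 3501 with it, while DESeq2 with the block called 481 higher and 216 lower. They also rested on single libraries, since without 2N R2 only 0 and 1 genes were called, without 2N R1 113 and 12, without 1N R1 2298 and 3275, and without 1N R2 215 and 23.

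The listed spermatogonial and somatic cells bore on the calls as well. With those 14 cells left out, 8 genes were higher and 4 lower, and all 760 of the genes called with them and still tested kept their direction. The 4 lower genes were Tnp1, Tnp2, Prm1 and Prm2, and the 8 higher genes were Pou5f2, Pcbp1, Tomm34, Gm9484, BC049730, Phf2, Eppk1 and D030056L22Rik. The estimated prior degrees of freedom were infinite with these cells, so that all genes shared 1 trend of the spread, and 17.9 without them.

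Genes for nuclear condensation, the replacement of histones in the spermatid nucleus, had the lowest median of the germ cell lists. Of 12 tested, 8 were lower and 0 higher, with a median of -1.20 (-0.63 within R1 and -1.57 within R2). Prm1, protamine 1, on chromosome 16 from 10796326 to 10805839, stood at 1128.88 and 2357.73 CPM in 1N and at 567.47 and 780.07 CPM in 2N. No 2N sum reached a 1N sum, and Prm1 fell by 1.31 (SE 0.22, adjusted p = 1.95e-05 from edgeR). Tnp2, transition protein 2, fell by 1.29 from 990.41 and 1847.89 to 508.40 and 612.08 CPM, and Prm2 and Tnp1 also fell, with differences of -1.296 and -1.244. H1fnt, a testis-specific linker histone, fell by 1.33, whereas Rnf8, a ubiquitin ligase, was the highest of the list at 0.84 (adjusted p = 0.329).

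The median of Prm1 was lower in 2N than in 1N in each of the classes, also in those that are not elongating. For spermatocyte-like cells this rested on 2 and 3 cells of 1N R1 and R2, at 1083.3 and 552.7 CPM. The median of Prm1 was 582.3 and 959.5 CPM in round spermatid-like 1N cells and 400.2 and 629.9 CPM in such 2N cells. In unnamed cells it was 524.5 and 832.9 CPM in 1N and 340 and 595.1 CPM in 2N, and in elongating spermatid-like cells 7986.8 and 5378.6 CPM in 1N and 3996.8 and 3450.2 CPM in 2N. Spermatocyte-like cells held 229 and 397.8 CPM in 2N and 116 and 140.1 CPM in 4N, so that the level in cells of 1 class moved with gate and replicate. The part of RNA shared between the cells of a library in these differences was not tested.

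The acrosome list, genes of the enzyme-filled cap that forms over the spermatid nucleus, had 8 of 21 lower and 0 higher, with a median of -0.81 (-0.22 within R1 and -1.26 within R2). Besides Acrv1, Spaca1, a membrane protein of the acrosome, fell by 0.95 from 487.68 and 662.53 to 389.65 and 241.89 CPM (adjusted p = 0.0235), and Spaca4 fell by 1.02. Spink2, Acrbp and Zpbp2 had differences of -0.30, -0.51 and -0.20 that did not pass. Tex101, a germ cell surface protein, was the highest at 0.76 (94.36 and 281.12 CPM in 2N, adjusted p = 0.14).

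Of the regulators that act in spermatids, 7 of 18 were lower and 0 higher, with a median of -0.65 (-0.25 within R1 and -1.09 within R2). Tssk6, a testis-specific serine kinase, fell by 1.47 from 160.69 and 344.18 to 93.10 and 84.91 CPM, and Spz1 and Tssk1 fell by 1.11 and 1.08. Crem, the cAMP-responsive activator of spermatid genes, was at 508.21 and 546.81 CPM in 1N and 406.20 and 354.76 CPM in 2N without a call (adjusted p = 0.331). Rfx2, a regulator of cilium genes, was the highest at 0.35, and Tbpl1 stood at -0.23.

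Genes of the flagellum had 6 of 27 lower and 0 higher, with a median of -0.58 (-0.17 within R1 and -1.01 within R2). Cabs1 fell by 1.29 from 205.77 and 475.65 to 140.11 and 129.07 CPM, and Smcp, a mitochondrial sheath protein, fell by 0.98. Meig1, Ropn1l and Odf2, among the most abundant of the list, had differences of -0.32, -0.40 and -0.62 without a call, and Dnah17 stood at 0.53. In the list of sperm energy metabolism edgeR called 0 of 12, with a median of -0.27 (-0.13 within R1 and -0.38 within R2) and 5 at an unadjusted p under 0.05. Ldhc, the germ cell lactate dehydrogenase, stood at 1490.81 and 1784.05 CPM in 1N and 1406.23 and 1417.03 CPM in 2N, Cox8c at -0.10, Cox6b2 at -0.34, Pgk2 at -0.72, Aldoart1 at -0.92 and Slc2a3 at 0.56.

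Among genes of meiotic prophase the sums moved less, and the few calls were upward. In the pachytene list, 3 of 14 were higher and 0 lower, and the median was -0.13, opposite in sign to the calls. Pou5f2, a POU domain factor of spermatocytes on chromosome 13 from 78024902 to 78026295, stood at 7.71 and 31.85 CPM in 1N and at 52.23 and 97.25 CPM in 2N. The gates did not overlap and the 4N sums lay higher still, at 187.05 and 228.45 CPM, and Pou5f2 rose by 2.11 (SE 0.37, adjusted p = 2.46e-05), the largest rise under the naming rule. Piwil1, which binds pachytene piRNAs, on chromosome 5 from 128702524 to 128755474, rose by 1.49 from 33.34 and 49.74 to 70.79 and 176.45 CPM, and Tdrd5 rose by 2.00. Ldhc, Hspa2, Tbpl1 and Pgk2 of the same list had differences from -0.72 to -0.20.

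The list of the chromatoid body and the piRNA pathway had 2 of 14 higher, Piwil1 and Piwil2 (1.25, adjusted p = 0.0473), 0 lower and a median of 0.43 (0.07 within R1 and 0.65 within R2). Mael, Ddx25 and Ybx2 stood at -0.49, -0.37 and 0.04. Of 22 genes of the meiotic divisions, 2 were higher, 0 were lower and the median was 0.37 (0.07 within R1 and 0.61 within R2). Fbxo43, an inhibitor of the anaphase-promoting complex, rose by 1.74 from 9.56 and 10.78 CPM in 1N, and Cks2, a subunit of cyclin-dependent kinases, rose by 1.17 from 76.64 and 117.38 to 130.99 and 335.22 CPM. The cyclins Ccnb1 and Ccnb2, the kinase Aurka and the low-level Ccnb3 had differences of -0.33, -0.22, 0.12 and -2.53 that did not pass.

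In the crossover list, 2 of 9 were higher and 0 lower, with a median of 0.38 (0.17 within R1 and 0.59 within R2). Mlh3, a mismatch repair protein of crossover sites, rose by 1.86 from 8.91 and 7.60 to 14.23 and 54.64 CPM, and Ccnb1ip1 rose by 1.83 although its sums overlapped. Msh4, Hfm1 and Rnf212 stood at -0.63, 0.38 and 0.47 without a call. Of 11 genes of the synaptonemal complex and cohesin, only Sycp3 rose (1.56, from 15.98 and 8.64 to 21.62 and 53.63 CPM), and the median was -0.21, with Syce1, Smc1b and Syce3 at -0.31, -0.25 and -0.41 and Rec8 at -0.98. No gene of the early prophase list was called in 11 (fitted median -0.10, 2 at an unadjusted p under 0.05), although the within-mouse medians were 0.23 in R1 and 0.17 in R2, in which Hormad1, Spo11 and Meioc stood at 0.93, 0.58 and 1.06, Gm960 at 1.06 and Rad51ap2 at -1.71.

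The spermatogonial list had 1 of 14 higher and 0 lower, with a median of -0.47 (-0.11 within R1 and -0.70 within R2). The gene called was Id4, a helix-loop-helix inhibitor known from spermatogonial stem cells, which rose by 1.79 from 12.66 and 9.40 to 22.79 and 59.34 CPM. Its highest sums were those of the 4N gate, 69.18 and 71.86 CPM, where no cell was listed for the spermatogonial panel. Dmrtb1, Gfra1 and Uchl1 had differences of -0.51, -0.63 and -0.34 and Sohlh1 of -1.48, none of which passed.

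Beyond the lists, 75 rises and 329 falls met the naming rule on level and on sums that do not overlap, a pattern shown by 24.1% of all genes for 2N above and 20.7% for 2N below 1N. After Pou5f2, the largest rises were those of Pcbp1, an RNA-binding protein, at 1.93 (20.23 and 43.45 against 70.70 and 177.93 CPM), D030056L22Rik at 1.89 and Gm21269 at 1.84. They were followed by Ccp110, a centriole cap protein, at 1.83, the nucleotide hydrolase Dut at 1.83, 1700006A11Rik at 1.78, 4930579G24Rik and Gmcl1 at 1.68 and 1.68, and the initiation factor subunit Eif2b1 at 1.62. In each of these 10 genes both 4N sums lay above both 2N sums, and Pcbp1, Gm21269 and 1700006A11Rik were also among the 10 leading genes of the spermatocyte-like cluster.

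The largest falls were those of 1700080E11Rik, by 2.06 from 73.18 and 166.43 to 21.82 and 32.64 CPM, and of the ubiquitin ligase Rnf25, by 1.91 from 94.67 and 61.28 to 38.12 and 10.35 CPM. Defb33, a defensin, fell by 1.78, Lmbr1l by 1.73, Gm11634 by 1.72, Klk1b26 by 1.66, Atp6v1e2, a subunit of the vacuolar proton pump, by 1.65, Bri3bp by 1.63, Oxct2b by 1.63 and 1700020A23Rik by 1.62. For Rnf25 and Lmbr1l the higher 1N sum was R1, while for 1700080E11Rik, Defb33 and Klk1b26 it was R2, where elongating spermatid-like cells were a larger share, and 1700080E11Rik, Gm11634 and Oxct2b were among the 10 leading genes of that cluster. The part of the mix of classes in these falls, and in the rises above, was not tested.

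**Figure D3:**
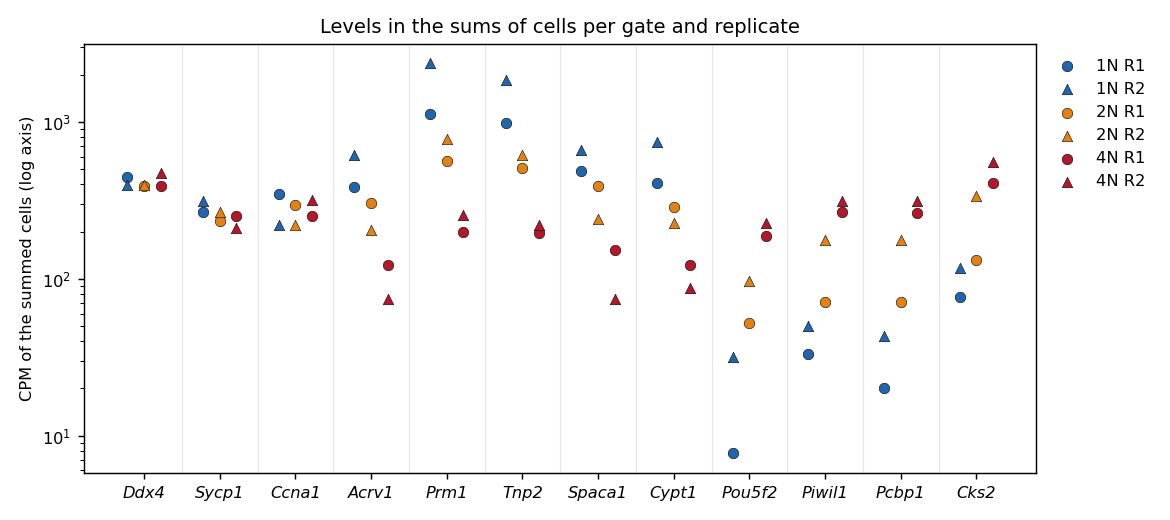
Level of 12 genes (TMM-scaled CPM, log axis) in the sums of cells of each gate and replicate, 1 point per sum, circles for R1 and triangles for R2. Prm1, Tnp2, Acrv1, Spaca1 and Cypt1 descend from 1N through 2N to 4N and Pou5f2, Piwil1, Pcbp1 and Cks2 ascend, while Ddx4, Sycp1 and Ccna1 differ little (2N minus 1N of -0.11, -0.21 and -0.14 on the log2 scale).

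The promoters of the leading protamine genes and of 2 of the meiotic genes are printed to show the sequence behind the genes that parted the gates. They run from 250 bases before to 50 bases after the RefSeq start (GRCm38.p6), 5′ to 3′ on the gene's strand, and capitals mark a match to TATAAA (the TATA box), TGACGTCA (the cAMP response element bound by CREM) or AACGG (the core bound by MYB factors) on either strand. The windows are chr16:10796774-10797073 (minus strand) for Prm1, chr16:10792056-10792355 (minus) for Prm2, chr13:78024652-78024951 (plus) for Pou5f2 and chr5:128735996-128736295 (plus) for Piwil1, and the starts of Prm1 and Piwil1 lie inside the longer gene spans of the annotation used for positions.
Prm1: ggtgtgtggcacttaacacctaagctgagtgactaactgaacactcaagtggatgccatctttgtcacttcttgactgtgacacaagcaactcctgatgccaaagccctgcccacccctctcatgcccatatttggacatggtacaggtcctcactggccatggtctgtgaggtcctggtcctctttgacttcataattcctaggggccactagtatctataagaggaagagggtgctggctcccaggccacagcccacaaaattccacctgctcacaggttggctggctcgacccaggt
Prm2: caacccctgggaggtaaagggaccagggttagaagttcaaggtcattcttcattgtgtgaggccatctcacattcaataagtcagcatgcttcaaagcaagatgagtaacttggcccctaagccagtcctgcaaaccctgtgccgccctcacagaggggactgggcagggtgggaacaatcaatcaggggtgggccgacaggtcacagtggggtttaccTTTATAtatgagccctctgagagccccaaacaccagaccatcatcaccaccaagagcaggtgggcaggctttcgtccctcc
Pou5f2: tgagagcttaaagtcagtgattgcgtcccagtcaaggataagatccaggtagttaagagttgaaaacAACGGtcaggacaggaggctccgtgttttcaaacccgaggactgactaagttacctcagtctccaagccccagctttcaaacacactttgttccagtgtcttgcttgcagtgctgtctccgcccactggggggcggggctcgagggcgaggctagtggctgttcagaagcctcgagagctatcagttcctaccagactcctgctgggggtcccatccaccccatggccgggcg
Piwil1: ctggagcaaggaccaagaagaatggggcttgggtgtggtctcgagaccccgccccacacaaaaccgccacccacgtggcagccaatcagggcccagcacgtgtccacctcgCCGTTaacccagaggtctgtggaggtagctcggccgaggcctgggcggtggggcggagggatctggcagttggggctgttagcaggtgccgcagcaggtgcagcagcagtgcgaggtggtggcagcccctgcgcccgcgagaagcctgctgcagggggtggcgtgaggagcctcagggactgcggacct

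Prm1 held none of the 3 motifs, Prm2 held TATAAA on the reverse strand with its first base at -31, Pou5f2 held AACGG at -183 and Piwil1 held it on the reverse strand at -139. Of 32851 promoters of the same length, 13.62% held TATAAA, 1.79% TGACGTCA and 17.45% AACGG. Among the 10 largest rises, 9 genes had a promoter in the table and 4 of them held AACGG, and among the 10 largest falls it was 1 of 9. These counts are of genes with a match in any promoter (10 promoters for the rises, 11 for the falls), unlike the shares of single promoters above. TATAAA was found in 1 of the 9 and 0 of the 9, and TGACGTCA in neither. A match is a run of letters and was not tested as a binding site. Only exact matches were searched, so the lack of a match, as in Prm1, does not show that a site is absent.

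Round spermatid-like cells occurred in both gates, which allows cells of 1 class to be compared across gates. The sums held 66 and 52 cells for 1N, 66 and 26 for 2N and 24 for 4N R1, and 4N R2, with 5 such cells, was left out of the fit. These cells were also deeper in 2N, with a median of 374432 and 318850.5 UMIs against 326455 and 192697.5 in 1N, a ratio of 1.147 and 1.655. The clusters that make up the class differed in weight, with 49 and 17 cells of 1N R1, 26 and 26 of 1N R2, 48 and 18 of 2N R1 and 19 and 7 of 2N R2 in its first and its second cluster.

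Of 18065 genes tested among these cells, 16 were higher in 2N (0.0886%) and 290 lower (1.61%), 306 in all or 1.69%, while the median of all genes was 0.03. Only 261 of the 306 lay outside the genes used for the clustering. As before the calls needed the block: without it edgeR called 0 genes, with 545 at an unadjusted p under 0.05 against 1457 with it, and DESeq2 with the block called 0 higher and 3 lower. Those 3 were among the largest falls named below and belong to no list. DESeq2 therefore called no member of any list in these cells, and the list counts and list members below rest on edgeR. With DESeq2's size factors in place of TMM, edgeR called 0 higher and 27 lower, and of the 290 lower genes only 10 had a fold of at least 2. The main fit had 1 residual degree of freedom, and its estimated prior degrees of freedom were infinite. All genes thus shared 1 trend of the spread, and the SEs and adjusted p-values below do not measure each gene's own variation between mice.

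Nuclear condensation had 7 of 12 lower and 0 higher, with a median of -0.50. In 2 of the 12 both 2N sums lay below both 1N sums, and in 2 both lay above. Over all genes tested these shares were 13.7% and 17.6%. Prm1 fell by 0.60 from 691.48 and 1226.55 to 474.86 and 779.17 CPM (SE 0.10, adjusted p = 1.01e-06 from edgeR). Its 2N R2 sum lay above its 1N R1 sum, so the gates overlapped and only the pairs were ordered, at -0.54 in R1 and -0.65 in R2. Tnp2, Prm2 and Tnp1 fell by 0.61, 0.56 and 0.55.

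The acrosome list had 7 of 21 lower, with a median of -0.27, and Acrv1 fell by 0.43 from 547.72 and 779.15 to 448.54 and 522.84 CPM (SE 0.10, adjusted p = 0.00623). Spam1, a sperm surface hyaluronidase, was at 201.93 and 188.34 CPM in 1N and 190.80 and 199.78 CPM in 2N, with overlapping sums. Ddx4, Sycp1 and Ccna1 were not called, with differences of -0.14, -0.14 and -0.06. Flagellum genes had 7 of 27 lower (median -0.23), spermatid regulators 5 of 18 (-0.21), sperm energy metabolism 3 of 12 (-0.18) and X-linked genes 2 of 17 (-0.19, with 0.00 within R1 and -0.34 within R2). In the meiotic lists Pgk2 of the pachytene list and Mael of the piRNA list were lower, and in the spermatogonial list Dmrtb1, a transcription factor that spermatids also held here, fell by 0.50. No list member was called higher, and 0 genes were called of 12 in early prophase, of 11 in the synaptonemal complex, of 9 in crossover and of 22 in the divisions, with medians of 0.00, -0.16, 0.22 and 0.17 and 2, 3, 0 and 2 genes at an unadjusted p under 0.05.

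Most of the largest rises between the whole gates were not called in these cells. This is not an independent reading, since only listed genes were left out of the clustering and rises outside the lists could help form the classes. Pcbp1, Gm21269 and 1700006A11Rik were among the leading genes of the spermatocyte-like cluster. Pou5f2 was at 2.10 and 10.26 CPM in round spermatid-like 1N cells and 7.02 and 13.21 CPM in 2N (1.03, SE 0.39, adjusted p = 0.231), and Piwil1 at 11.85 and 14.64 against 17.31 and 35.54 CPM (0.90, adjusted p = 0.119). Of the 10 genes with the largest rises in all cells, only D030056L22Rik was called here, at 1.22 (adjusted p = 0.0184). The difference between the 2 comparisons was not tested, as they share cells.

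Under the naming rule 2 rises and 147 falls were eligible, where 17.6% of all genes had both 2N sums above and 13.7% both below the 1N sums. Cul3, the scaffold of a ubiquitin ligase, rose by 0.81 from 65.70 and 51.68 to 90.72 and 115.75 CPM (adjusted p = 0.0153), and Eif3b, an initiation factor subunit, rose by 0.73 from 86.88 and 102.49 to 134.79 and 180.89 CPM (adjusted p = 0.00617). Neither was called in the sums of all cells, where the differences were 0.75 and 0.74.

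The largest falls were those of Lmbr1l, with a difference of -1.502 from 108.07 and 40.30 to 27.13 and 20.88 CPM, and Rnf25, by 1.47 from 128.27 and 81.84 to 54.18 and 24.71 CPM. Plac8 fell by 1.01, Atp6v1e2 by 0.90 from 475.20 and 472.17 to 313.42 and 203.48 CPM (adjusted p = 1.27e-09), the autophagy protein Gabarapl1 by 0.81, Ccer1 by 0.69, 1700027A15Rik by 0.68 and Fam71e1 by 0.65. Lmbr1l, Rnf25 and Atp6v1e2 were thus among the 10 largest falls in both comparisons, which share cells. Gm14147 and Gm14151, neighbours on chromosome 2, fell by 0.78 and 0.76 with nearly the same CPM in each sum (286.76 and 282.14 in 1N R1), so reads may have been divided between copies of like sequence and their values are uncertain. Both were leading genes of the second round spermatid-like cluster, which held 7 cells of 2N R2 and 26 of 1N R2, and the part of that cluster in their fall was not tested.

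**Figure D4:**
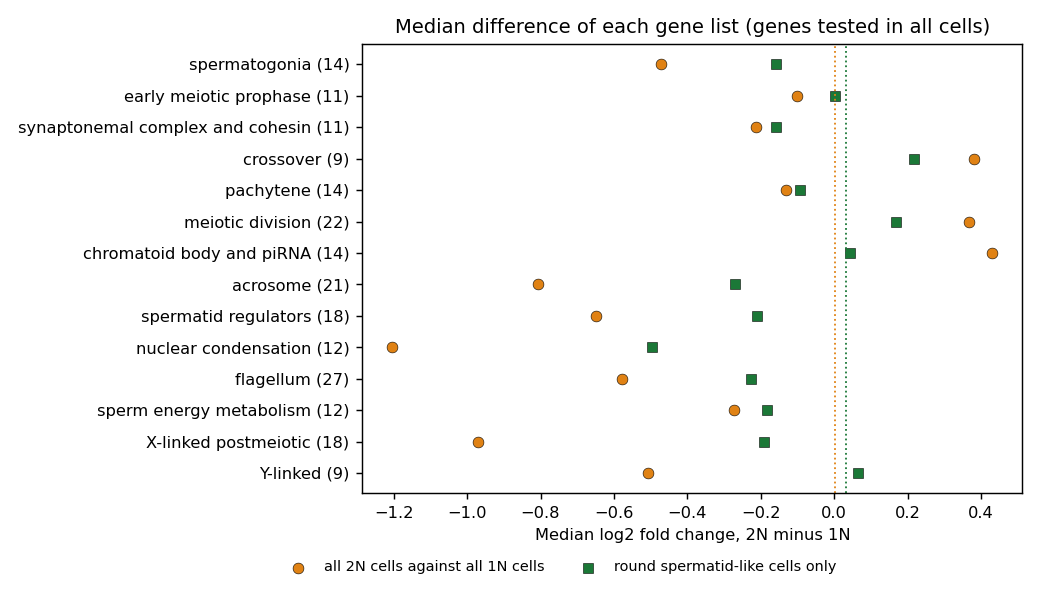
Median log2 fold change (2N minus 1N, horizontal axis) of each gene list in all cells (circles) and in round spermatid-like cells (squares), with the number of genes tested in all cells in brackets and dotted lines at the medians of all genes, 0.00 and 0.03. Haemoglobin genes are not plotted; of the 14 germ cell lists shown, nuclear condensation lies lowest in both, at -1.20 and -0.50, and the chromatoid body list lies highest in all cells at 0.43.

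Transcripts of blood cells marked a difference between libraries. All 4 tested haemoglobin genes were lower in 2N (median -2.34), and Hba-a1 stood at 28.51 and 4.84 CPM in 1N and 2.37 and 3.63 CPM in 2N. The high value was that of 1N R1, where the 4 genes together reached 76.4 CPM against 15.3 in 1N R2, 6.9 and 7.4 in 2N and 22.9 and 5.0 in 4N. It came from 1 of the 2 libraries of 1N R1, with Hba-a1 at 50.53 against 5.15 CPM and Hbb-bs at 36.99 against 0.11 CPM (library CPM), and the list's median was -3.17 within R1 and -0.92 within R2. In round spermatid-like cells 3 of 4 were lower, with a median of -2.36. The genes are near-identical copies, so their single values are uncertain, Alas2 had 1 UMI in the 2N and 0 in the 1N gate, and the part of such RNA in other differences was not tested.

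The sex chromosomes were read as a whole, with the listed X-linked and Y-linked genes among the rest. Of 30525 genes placed on the annotation, 1086 lie on X and 733 on Y. X-linked genes gave 1.58% and 1.18% of the UMIs of 2N R1 and R2, against 1.71% and 2.17% in 1N and 0.692% and 0.373% in 4N. The 2N gate thus lay between the others in both mice. Y-linked genes gave 0.163% and 0.121% in 2N, 0.160% and 0.216% in 1N and 0.0656% and 0.0371% in 4N, and 2N R1 lay just above 1N R1.

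Within classes the X share of 2N cells followed the class. This is not an independent reading, since only listed genes were left out of the clustering and other X-linked genes could help form the classes. It was 2.39% and 2.34% in round spermatid-like, 2.74% and 2.90% in elongating spermatid-like, 1.12% and 1.58% in unnamed and 0.186% and 0.201% in spermatocyte-like 2N cells. Spermatocyte-like 4N cells had 0.151% and 0.136%, below both 2N values, and round spermatid-like 1N cells 2.20% and 2.40%, which overlapped those of 2N. Mitochondrial transcripts gave 0.346% and 0.591% of 2N UMIs and 0.325% and 0.271% of 1N UMIs.

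**Figure D5:**
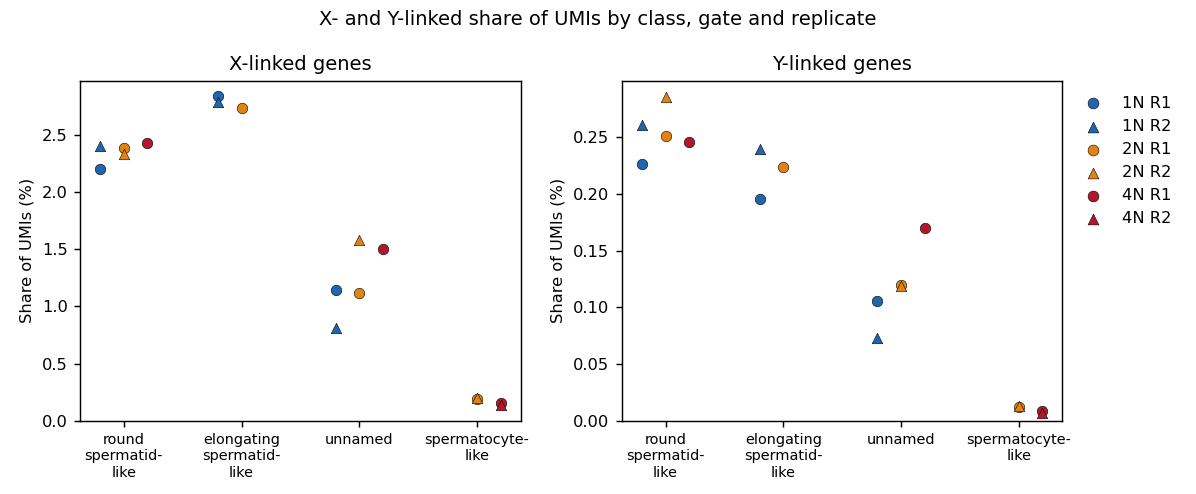
Share of UMIs (%) from X-linked (left) and Y-linked genes (right) by class, gate and replicate, 1 point for each group of at least 10 cells. X- and Y-linked genes outside the lists were open to the clustering that made the classes. Spermatocyte-like cells lie lowest, at 0.186% and 0.201% for X in 2N, and round spermatid-like cells of 2N at 2.39% and 2.34%, where those of 1N lie at 2.20% and 2.40%.

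In the list of X-linked postmeiotic genes 6 of 18 were lower in 2N and 0 higher over all cells, with a median of -0.97 (-0.26 within R1 and -1.36 within R2). Cypt1, a spermatid perinuclear theca gene, fell by 1.16 from 409.55 and 748.33 to 288.78 and 227.68 CPM (adjusted p = 0.00492), and Cypt3 and Tsga8 fell by 1.13 and 0.97. Slxl1 stood at -0.78, Hprt, a housekeeping enzyme, at 0.68 and Magea5 at -2.25 on few counts. In the Y-linked list 0 of 9 genes were called and 0 were at an unadjusted p under 0.05, with a median of -0.51 (-0.15 within R1 and -0.76 within R2), and Sly, Eif2s3y, Zfy2, Zfy1 and Usp9y stood at -0.51, -0.73, -0.59, -0.16 and -1.01. In round spermatid-like cells the median of the Y-linked list was 0.06.

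Elongating spermatid-like cells differed most in depth between the gates. Their median was 290785.5 and 400874 UMIs in 2N against 142570 and 189273 in 1N, a ratio of 2.04 and 2.118. With 12 and 8 cells in 2N they missed the minimum of 10 cells a sum in R2, and their genes were not tested. Unnamed cells had ratios of 1.064 and 1.482. Spermatocyte-like 2N cells held a median of 315926 and 414543 UMIs and those of 4N 413914 and 293227, so that their order differed between the mice.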

How the data were processed

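Single cells of PND30 testes were profiled by modified STRT-seq, which tags the 3′ end of each transcript. Per the labels and the methods of the study, the authors aligned reads to mm10 with STAR, assigned them to genes with featureCounts and collapsed them with UMI-tools; the deposited values are UMI counts per gene and cell (31053 genes), and the authors' table of genes and transcripts per cell, also counts, matched the totals of all 1056 PND30 cells. The library labels give no condition, so gate and replicate came from the cell names, and no sample was grouped otherwise; 11976 columns of other cells were not used.

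Cells were filtered as in the study and summed per gate and replicate. Sums were tested with edgeR 4.0.16 (TMM, filterByExpr, quasi-likelihood, replicate as block, false discovery rate 0.05), in a fit with 1N, 2N and 4N; scripts were tested on simulated data. The numbers pair the samples because each replicate is 1 mouse. Deviations between mice correlated across 20269 genes at 0.22 (1N and 2N), 0.137 (1N and 4N) and 0.383 (2N and 4N). With 2 mice, n = 2 per gate. Cells were clustered with scanpy 1.11.5 (resolution 0.3, list genes left out). A cluster was named from its best panel (mean log2(CPM + 10), cluster minus other cells) where the best spermatocyte and spermatid panels differed by at least 1 and at least 3 markers were detected in 50% of its cells, a rule set after the clusters were seen. The members and gene lists were chosen with earlier results of these data known. Named genes were Ddx4, Sycp1, Ccna1 and Acrv1, the 10 largest called rises and falls among genes whose log2 CPM averaged 5 or more and whose sums do not overlap, and in each list the 4 most abundant members and both extremes; other called members were named after their values were seen. Positions are those of GENCODE M21 (mm10), and promoters those of RefSeq. Alternatives were DESeq2 1.42.0, its size factors, no block, other filters, thinned UMIs, other clusterings and sums or mice left out.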

Additional observations from a re-analysis of the deposited data

How the results depend on the processing

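In all cells, the counts of genes higher and lower in 2N (364 and 397) became 56 and 68 with only the sums of 2N and 1N, 0 and 0 without the replicate block, with or without the 4N sums, 196 and 170 with DESeq2's size factors, 481 and 216 with DESeq2 (7074 adjusted p not given), 6 and 11 with cells thinned to 10000 UMIs, and 8 and 4 without cells high in spermatogonial or somatic markers, an alternative chosen after seeing the data. Leaving out 1 sum gave 0 to 2298 higher and 1 to 3275 lower. In round spermatid-like cells, 16 and 290 became 0 and 0 without the replicate block, with or without 4N, 0 and 27 with DESeq2's size factors, 0 and 3 with DESeq2 and 0 and 16 after thinning, 10 higher were left with all genes of at least 1 UMI, 447 lower were called in the first cluster alone (chosen after seeing the data), and 10 lower had a fold of at least 2. Leaving out a mouse there leaves no residual degrees of freedom, so the other mouse's difference was taken as a value with no test. The smaller counts after thinning come with fewer genes tested (11488 and 8391); the cause of the others was not tested. Of the 761 genes called in all cells, from 757 of 760 to all of those tested kept their direction in each of these fits, and all 306 did in round spermatid-like cells where tested. Ccna1, not called in any fit, turned to 0.11 without 1N replicate 1 (the lowest with 1 sum left out was -0.38) and, in round spermatid-like cells, to 0.10 without replicate 1 (-0.21 without replicate 2). Of the other 545 values of named genes, 367 kept their side of the threshold, 176 lost the call and 2 moved.

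At resolution 0.1 the 2N gate held 59.21% round spermatid-like, 16.25% elongating spermatid-like and 0.0% unnamed cells, and with list genes kept 17.33% and 10.83% of the first 2. Spermatocyte-like cells were 40.07% of the 2N gate at resolution 1.0 and 15.52% with list genes kept, against 23.83%, and 20.63% of the 1N gate at resolution 1.0, against 1.75%. Thinned to 50000 UMIs, Sycp1 was detected in 97.37%, Ccna1 in 98.12% and Acrv1 in 95.11% of 2N cells, and thinned to 10000 UMIs Ddx4 in 96.03%, Sycp1 in 80.51%, Ccna1 in 75.09% and Acrv1 in 74.73%. The median 2N cell held 326107.5 UMIs without the cell filter and 334935.5 to 338710 with 1 mouse left out. With 2 mice and 8 to 87 2N cells per class and mouse, the number of mice and cells limits what can be said of the mix.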
